A study of Mus musculus with 159 samples.

Results

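Transcripts of metallothioneins and zinc transporters were followed in liver and in prefrontal cortex (PFC) after female mice had drunk ethanol or been injected with the bacterial endotoxin lipopolysaccharide (LPS). The genes were Mt1, Mt2 and Mt3, the zinc importers Slc39a1, Slc39a4 and Slc39a14, and the exporters Slc30a1 and Slc30a10. Members were found by gene symbol in the deposited value table, which gave 8 of 9703 genes and 10 of 13983 probes. Mt1 and Slc39a4 were selected on their measured change in liver, so their liver changes are a description and carry no test.

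Each array held RNA of a single C57BL/6J female. Treated mice of the Chronic test could drink 20% ethanol at all times, those of the Chronic Intermittent test (CI) on alternate days, and those of the test called Drinking in the Dark (DID) for a few hours of the dark period, while their controls had water alone. LPS mice received 2 injections of 1 mg/kg LPS a week apart, and their controls are given as water in the labels and as saline injections in the study's methods. Tissue was taken about a day after the last ethanol or a week after the last LPS injection, in the dark phase for DID and in the light phase for the other tests, and the labels give an age of 2.5 months for all groups, while the study's methods give older mice at the start of Chronic and CI than of DID and LPS. Each of the 16 groups had 10 arrays, except for 9 in Chronic PFC controls, and no control mouse is tied to a treated mouse. The methods describe brain and liver as dissected in 1 session, so both tissues of a test may come from the same mice, but the labels tie no liver array to a PFC array. No male, no other strain and no measurement of zinc or protein was analysed.

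Metallothioneins are small, cysteine-rich proteins that bind zinc and copper in the cell. Free zinc activates the transcription factor MTF-1, which binds metal response elements in the promoters of Mt1, Mt2 and Slc30a1, while glucocorticoids, cytokines and oxidative stress are further known inducers of Mt1 and Mt2. Proteins of the Slc39 (ZIP) family carry zinc into the cytosol, and those of the Slc30 (ZnT) family carry it out of the cell or into vesicles. Liver is a main site of induced metallothionein and of zinc storage, and Mt3 is the metallothionein typical of brain.

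Metal response elements share the core TGCACNC or TGCGCNC, which was searched on both strands, overlaps included, in the 250 bases before the start that the RefSeq promoter table uses for each gene (GRCm38.p6). A promoter was matched for 6 of the 8 genes, with no entry matched for Slc39a4 and Slc39a14. Of 32851 promoters of this length, 21.41% held at least 1 core, 5.175% at least 2 and 1.263% at least 3. TGCACNC alone was in 10.4% and TGCGCNC in 12.51%. The windows of Mt2 and Mt3, neighbours on chromosome 8, are shown whole because the window of Mt2 holds 3 cores and that of Mt3 holds 0, with each core in capitals.
Mt2 (chr8:94172368-94172617, plus strand): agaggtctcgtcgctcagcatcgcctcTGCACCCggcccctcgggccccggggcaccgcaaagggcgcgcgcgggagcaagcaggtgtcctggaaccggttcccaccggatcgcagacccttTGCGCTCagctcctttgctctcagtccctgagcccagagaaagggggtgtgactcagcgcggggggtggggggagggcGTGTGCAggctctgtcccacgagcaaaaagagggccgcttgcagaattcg
Mt3 (chr8:94152357-94152606, plus strand): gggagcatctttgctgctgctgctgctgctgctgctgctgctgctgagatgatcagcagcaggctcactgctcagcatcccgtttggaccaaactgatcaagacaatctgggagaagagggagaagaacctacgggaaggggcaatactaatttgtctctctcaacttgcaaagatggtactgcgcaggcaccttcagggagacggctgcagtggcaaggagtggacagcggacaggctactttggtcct

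Mt1, the next gene beyond Mt2, had 1 core in its window, Slc30a1 had 1, Slc30a10 had 3 and Slc39a1 had 0. The cores of Mt1 and Slc30a1 lie past the first base of the annotated gene, before another start, so only the 30 bases around each core are shown, beside 1 of the cores of Slc30a10. In Slc30a1 the core lies on the minus strand and reads GAGTGCA on the plus strand.
Mt1 (chr8:94179055-94179084, plus strand): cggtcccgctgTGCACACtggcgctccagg
Slc30a1 (chr1:191906727-191906756, plus strand): acgggggttccGAGTGCAaagcaaagtttt
Slc30a10 (chr1:185454764-185454793, plus strand): tgacatcccaaTGCGCCCctcctcccagca

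These matches are a description of letters in a window and were set against no measurement of binding. Bases outside a window were not searched, so a low count, as for Mt1, does not mean that the gene has few elements.

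The values are log2 intensities, each change is treated less control, and the words rose and fell are kept for an adjusted p under 0.05 by limma over all probes of a set. A transcript is called differentially expressed (DE) at an unadjusted p under 0.05. A set is 1 treatment in 1 tissue, and the 8 sets were normalized separately, so levels are compared within a set alone. Liver sets held 8924 to 10068 probes and PFC sets 11269 to 12125. From 0 to 4 arrays of a set stood apart from the rest in their correlation with the other arrays (11 in all), and fits without them are given for changes of at least 0.05 in size that they turn, move by over 1.5 times or carry across the DE threshold. In tissue samples, fewer cells of a type and less RNA per cell cannot be told apart.

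With Mt1 and Slc39a4 left untested in liver, 0 of the members tested rose and 0 fell in any of the 8 sets by limma. At an unadjusted p under 0.05, Mt2 was lower among the 5 tested members of Chronic liver, Slc30a1 was lower among the 4 of CI liver, and Slc30a10 was lower among the 4 of DID liver. In LPS liver Slc39a1 was higher and Slc30a10 lower among 4, and in LPS PFC Slc30a1 was lower among 6. The 6 members tested in each of Chronic, CI and DID PFC had 0 DE. Over all probes, DE transcripts made up 12.1% of Chronic, 10.5% of CI, 5.19% of DID and 11.6% of LPS liver. In PFC they made up 4.38% with Chronic, 5.21% with CI, 3.88% with DID and 9.58% with LPS. By direction, DE transcripts higher in treated mice were 6.31% of Chronic, 5.23% of CI, 2.99% of DID and 6.21% of LPS liver, and those lower were 5.8%, 5.24%, 2.2% and 5.38%. In PFC of the same tests 2.61%, 2.84%, 1.84% and 4.61% were higher, and 1.76%, 2.37%, 2.04% and 4.97% lower. At an adjusted p under 0.05 the shares were 1.5%, 0.23%, 0.0224% and 0.555% in liver and 0%, 0%, 0% and 0.113% in PFC for Chronic, CI, DID and LPS. The median change of the members held in a set lay between -0.08 in CI liver and 0.02 in LPS PFC, beside medians of all probes within 0.003 of 0.

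**Figure D1:**
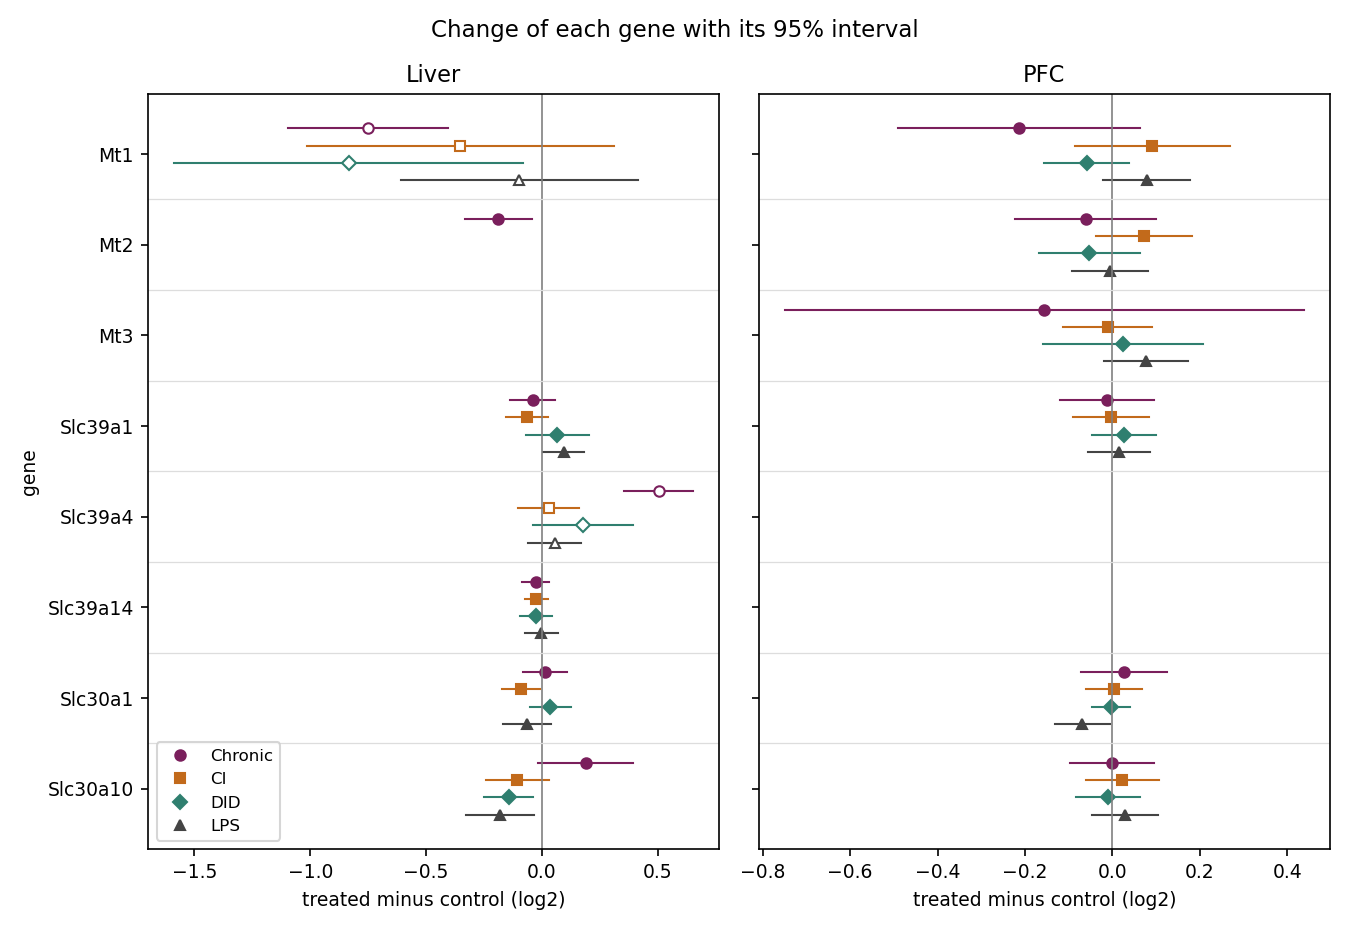
Treated minus control difference in log2 intensity of each gene in liver (left) and PFC (right), with its 95% interval from the standard error of limma, for Chronic, CI, DID and LPS. Open symbols mark Mt1 and Slc39a4 in liver, which were chosen for their change there; the 2 axes have different ranges, and the widest intervals belong to Mt1 in liver and Mt3 in Chronic PFC.

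Mt1 lay far above the floor of the scale in every set, at the 96.3rd to 99.8th percentile of mean signal. It came near the top instead, up to 15.14 in Chronic liver and 15.19 in Chronic PFC, where the highest values of any probe were 15.53 and 15.50. Whether the top of the scale narrows its changes or its scatter was not tested. In Chronic liver Mt1 ran from 13.11 to 15.10 with a median of 14.11 in treated mice, against 14.52 to 15.14 with a median of 14.90 in controls. Of the 10 treated mice, 9 lay below the lowest control and 1 (treated 5, at 15.10) lay within the control range. The means were 14.11 ± 0.50 (SD, n = 10) in treated mice and 14.87 ± 0.21 (SD, n = 9) in controls, a difference of -0.75 (SE 0.16), or 0.594 of the control level on the linear scale. Only 6 of the 10068 probes of the set had a change of larger size, a rank that describes a gene picked for this change. Over the 20 fits that left out 1 array each the difference lay between -0.86 and -0.64.

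DID liver also had a lower mean of Mt1 in treated mice, with more scatter than in Chronic liver. Treated mice ran from 11.17 to 14.09 with a median of 11.90, and controls from 11.79 to 14.32 with a median of 12.80. Treated 6 and treated 9, at 13.59 and 14.09, were above the control mean, the other 8 below it, and the groups overlapped. The difference was -0.83 (SE 0.36), the largest in size of all 8924 probes of the set. That rank describes a gene picked for its change in liver, in groups with SDs of 0.96 (treated) and 0.76 (control). With 1 array left out the difference lay between -1.05 and -0.69.

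In CI liver Mt1 ran from 11.62 to 14.46 with a median of 13.55 in treated mice, against 12.81 to 14.84 with a median of 14.04 in controls. The difference was -0.35 (SE 0.32), and without treated 1, the array at 11.62, it was -0.14. In LPS liver treated mice ran from 13.24 to 14.73 with a median of 13.96, and controls from 12.90 to 14.85 with a median of 14.30. Both groups of LPS liver covered nearly the same range, with a difference of -0.10 (SE 0.24) that was -0.01 without control 1, an array that stood apart. The SD within a group was 0.21 in Chronic controls and 0.55 to 0.96 in all CI, DID and LPS groups, so the same difference in means was measured with different precision. Side by side, the difference between the changes was -0.40 (SE 0.38) for Chronic less CI, 0.08 (SE 0.41) for Chronic less DID and -0.65 (SE 0.31) for Chronic less LPS, given without a test.

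**Figure D2:**
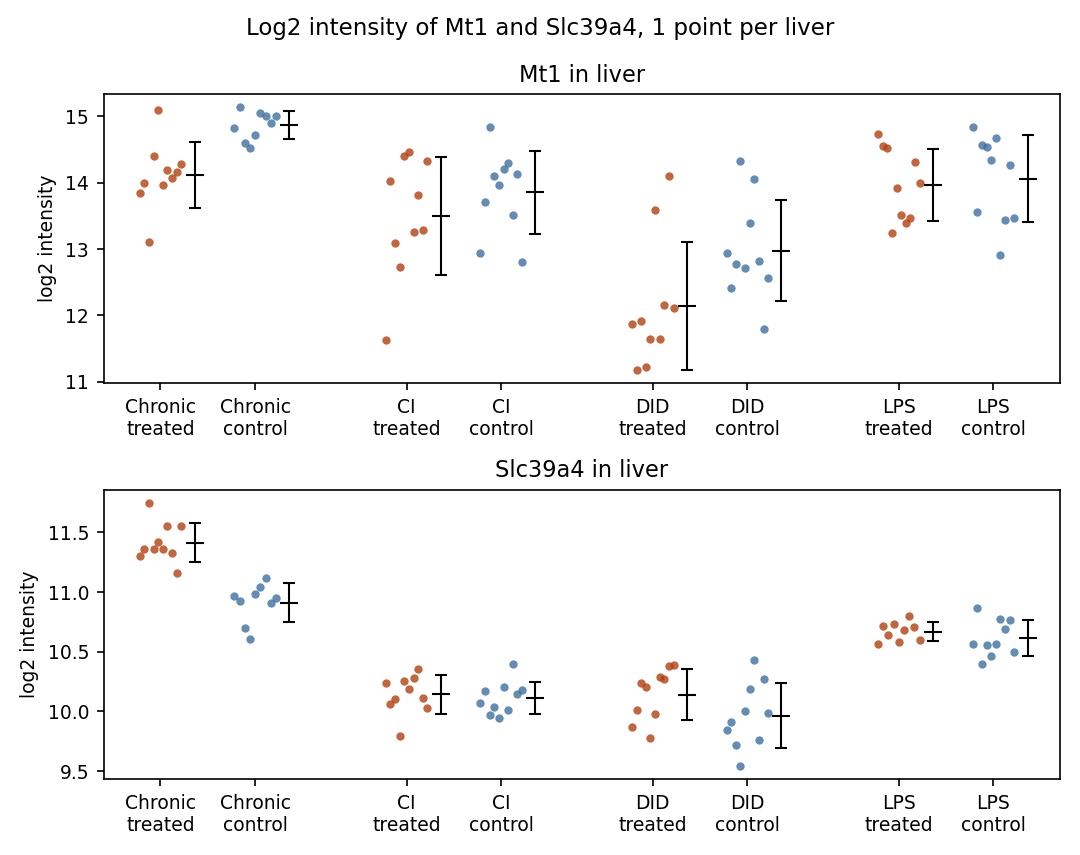
Log2 intensity of Mt1 (top) and Slc39a4 (bottom) in liver, 1 point per mouse, treated left of control in each test, with the mean and SD of the group as a bar. In Chronic liver 9 of 10 treated mice lie below all measured controls in Mt1 and 10 of 10 lie above them in Slc39a4. Both genes were chosen for their change in liver, and the groups of CI, DID and LPS overlap.

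Slc39a4 encodes ZIP4, the importer whose loss causes the zinc deficiency disease acrodermatitis enteropathica. In Chronic liver it ran from 11.16 to 11.75 with a median of 11.36 in treated mice, against 10.60 to 11.12 with a median of 10.95 in controls. All 10 treated mice lay above all 9 measured controls, in a gene picked for this change. How many of all probes part the groups in this way was not counted. The means were 11.41 ± 0.16 (SD, n = 10) in treated mice and 10.91 ± 0.16 (SD, n = 9) in controls, a difference of 0.50 (SE 0.07), or 1.42 times the control level.

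The value of control 7 in Chronic liver is blank for both Mt1 and Slc39a4, which the authors' Grubbs' test had removed as outlying among the controls. That array held 26 blanks among 10068 probes, fewer than the median of 35.5 over the arrays of the set. The direction in which its values lay is not given. With the blank set to the lowest value of the set the Mt1 difference was -0.58 (SE 0.22), and with it set to the highest it was -0.78 (SE 0.16). For Slc39a4 the difference was 0.42 (SE 0.10) with the blank at the highest value and 0.53 (SE 0.07) with it at the lowest, so both differences kept their direction.

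In DID liver Slc39a4 ran from 9.78 to 10.39 with a median of 10.22 in treated mice, against 9.54 to 10.43 with a median of 9.95 in controls. It was above the control mean in 8 of 10 treated mice, and the difference was 0.18 (SE 0.10). CI livers ran from 9.80 to 10.36 in treated mice and from 9.94 to 10.40 in controls, with a difference of 0.03 (SE 0.06). LPS livers ran from 10.56 to 10.80 in 9 treated mice and from 10.40 to 10.87 in controls, with a difference of 0.05 (SE 0.05). These CI and LPS groups covered nearly the same values. The change in Chronic liver exceeded that in CI by 0.48 (SE 0.10), that in DID by 0.33 (SE 0.13) and that in LPS by 0.45 (SE 0.09), as a description of a gene picked for its change. A second probe of Slc39a4 was held in CI and LPS liver near the floor of the scale, at the 8.19th and 7.61st percentile, with differences of 0.03 (SE 0.03) and 0.01 (SE 0.04).

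Mt2, which lies beside Mt1 and is induced with it by zinc, was held for liver in the Chronic set alone, at the 12.3rd percentile of signal. It ran from 8.19 to 8.38 with a median of 8.27 in treated mice, against 8.16 to 8.80 with a median of 8.47 in controls. All 9 treated mice with a value lay below the control mean, and 7 of 10 controls lay above the highest treated mouse. The difference was -0.19 (SE 0.07, p = 0.0123, adjusted p = 0.215 by limma), DE but short of the adjusted threshold. With the blank of treated 5 set to the highest value it was -0.14 (p = 0.106, adjusted p = 0.553 by limma), no longer DE. Treated 5 was also the treated mouse with the high Mt1 value. A signal this near the floor of the scale limits how large a decrease can be measured.

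In PFC, Mt1, Mt2 and Mt3 were held in all 4 sets and none rose or fell. Mt1 in Chronic PFC ran from 13.76 to 15.19 with a median of 14.81 in treated mice, against 14.79 to 14.97 with a median of 14.85 in controls. The SD was 0.42 in treated mice and 0.06 in controls, and 4 treated mice lay below the lowest control. The difference was -0.21 (SE 0.13, p = 0.120, adjusted p = 0.998 by limma). Treated 2 and treated 6, the 2 arrays of this set that stood apart, had Mt1 values of 13.76 and 14.16, and without them the difference was -0.04 (p = 0.567). The CI difference was 0.09 (SE 0.08, p = 0.289), the DID difference -0.06 (SE 0.05, p = 0.221) and the LPS difference 0.08 (SE 0.05, p = 0.114), each with an adjusted p over 0.05 by limma.

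Mt3, a metallothionein of neurons and astrocytes, was held in PFC and in 0 of the 4 liver sets. In Chronic PFC it ran from 11.46 to 13.82 with a median of 13.10 in treated mice, against 12.45 to 13.92 with a median of 12.97 in controls. The difference was -0.16 (SE 0.28, p = 0.586). The same treated 2 and treated 6 gave its lowest values, 11.46 and 11.62, and without them the difference was 0.17, on the other side of 0. The SD of 0.77 in treated mice and 0.53 in controls was far above the 0.05 to 0.24 of the other PFC groups. Of the astrocyte markers held, 9 of 11 had a higher and 2 a lower mean in treated mice of this set, with mean levels over the list of 10.73 to 10.84 in treated mice and 10.67 to 10.83 in controls. The part of these in the Mt3 values was not tested. In the other sets the Mt3 difference was -0.01 with CI, 0.02 with DID and 0.08 with LPS (p = 0.823, 0.790 and 0.107 by limma).

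Mt2 in PFC ran from 8.31 to 8.96 in treated mice and from 8.62 to 8.89 in controls of the Chronic test, with a difference of -0.06 (SE 0.08, p = 0.432 by limma) that was 0.02 without treated 2 and treated 6. It was 0.07 (SE 0.05) with CI, -0.05 (SE 0.05) with DID and -0.01 (SE 0.04) with LPS, with unadjusted p-values of 0.187, 0.345 and 0.900 by limma. Without the 4 arrays of CI PFC that stood apart the CI difference was 0.11 (p = 0.0267, adjusted p = 1 by limma), which is DE. The changes of these 3 genes in PFC had intervals that reached no further than 0.27 above and 0.49 below 0 on the log2 scale, except for Mt3 in Chronic PFC (-0.75 to 0.44). For Mt1, the change in liver less that in PFC was -0.54 (SE 0.22) in Chronic, -0.44 (SE 0.34) in CI, -0.78 (SE 0.38) in DID and -0.17 (SE 0.25) in LPS, given without a test because the liver change chose the gene. All fits of liver less PFC treated the arrays of both tissues as independent.

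**Figure D3:**
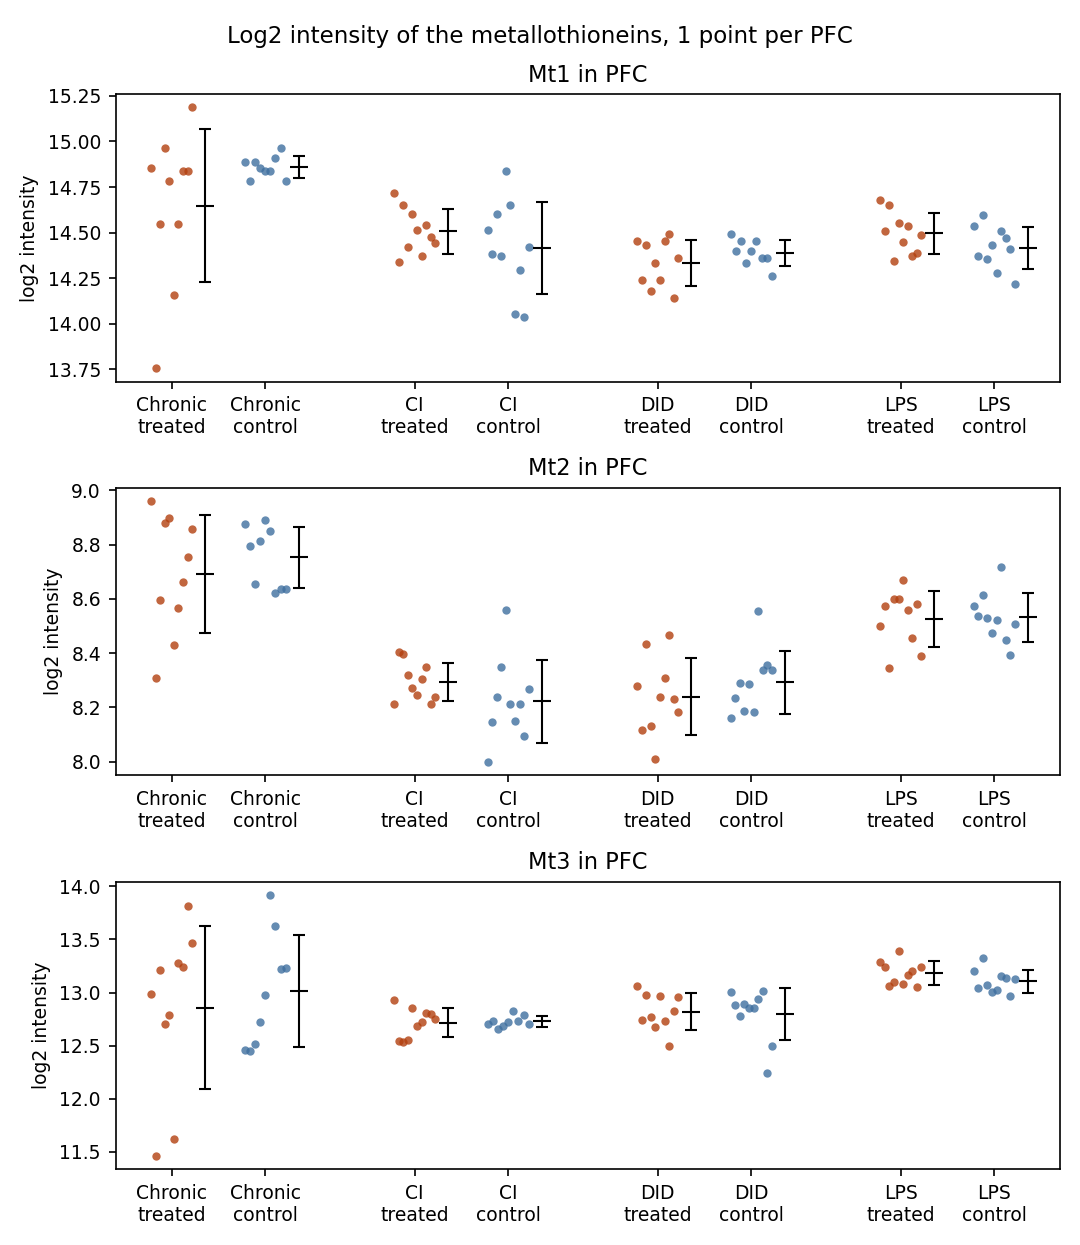
Log2 intensity of Mt1, Mt2 and Mt3 in PFC, 1 point per mouse, treated left of control in each test, with the mean and SD of the group as a bar. The points of treated and control mice overlap in all 4 tests, and 2 treated mice of Chronic PFC lie low in Mt1 and Mt3.

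Whether the metallothioneins varied together from mouse to mouse was asked with the group means removed. Mt1 and Mt2 had a Pearson's r of 0.77 over the 19 arrays of Chronic PFC (permutation p = 0.00095, adjusted p = 0.0123) and a Spearman's rho of 0.67 (permutation p = 0.00952, adjusted p = 0.124). Without treated 2 and treated 6 the r was 0.52, and it was 0.89 among treated mice and -0.35 among controls, which were not tested against each other. The r of Mt1 and Mt2 was 0.41 in CI PFC, 0.28 in DID PFC and -0.01 in LPS PFC, with rho values of 0.16, 0.28 and 0.04 and an adjusted permutation p of 0.321 or higher for all of these. In Chronic liver, given without a p-value because Mt1 was picked on its liver values, the r was 0.31 and the rho 0.48. In CI PFC the r turned to -0.07 without control 5 and control 9.

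Mt1 and Mt3 had an r of 0.68 in Chronic PFC (rho 0.36, permutation p = 0.00841 for r, adjusted p = 0.0547), which was 0.22 without treated 2 and treated 6. In LPS PFC, where no array stood apart, the r was 0.49 and the rho 0.48 (permutation p = 0.0343 and 0.0381, adjusted p = 0.149 and 0.165), and without the 2 farthest arrays the r was 0.53. Mt1 and Slc39a4 showed r values of -0.06 in Chronic, -0.08 in CI, 0.06 in DID and -0.44 in LPS liver (rho 0.31, -0.19, 0.08 and -0.42), given without a p-value for the same reason of choice. In Chronic liver that r was 0.60 without treated 3 and treated 5, the lowest and highest treated mouse in Mt1. The p-values of all 13 relations were adjusted as a family, with those of liver counted in it though not given. All p-values were two-sided, and the pairs of Mt1 with Mt3 and with Slc39a4 were chosen after the values had been seen.

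Slc30a10 encodes a plasma membrane exporter known chiefly for manganese. In DID liver it ran from 8.63 to 8.89 with a median of 8.78 in treated mice, against 8.73 to 9.18 with a median of 8.93 in controls. All 10 treated mice lay below the control mean, and 7 of 10 controls lay above the highest treated mouse. The difference was -0.14 (SE 0.05, p = 0.00851, adjusted p = 0.561 by limma). In LPS liver it ran from 8.60 to 9.04 with a median of 8.78 in treated mice, against 8.77 to 9.32 with a median of 8.93 in controls. There 9 of 10 treated mice lay below the control mean and 5 below the lowest control, with a difference of -0.18 (SE 0.07, p = 0.0170, adjusted p = 0.287 by limma). Without control 1, the array that stood apart, it was -0.14 (p = 0.0371).

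In Chronic liver the direction was the other one, with Slc30a10 at 8.83 to 9.63 and a median of 9.02 in treated mice, against 8.76 to 9.16 and a median of 8.91 in controls. Treated 1, 3, 4 and 10 lay above the highest control, and the other 6 lay inside the control range. The difference was 0.19 (SE 0.10, p = 0.0670, adjusted p = 0.464 by limma), and without control 1 and control 4, which stood apart, it was 0.24 (p = 0.0333, adjusted p = 0.312 by limma) and DE. In CI liver it was -0.11 (SE 0.07, p = 0.121). The difference between changes was 0.29 (SE 0.12, p = 0.0198, adjusted p = 0.389) for Chronic less CI, 0.33 (SE 0.11, p = 0.00534, adjusted p = 0.384) for Chronic less DID and 0.37 (SE 0.12, p = 0.00493, adjusted p = 0.124) for Chronic less LPS by limma. None passed the adjusted test, and the 3 share the Chronic mice. In PFC the Slc30a10 changes were within 0.03 of 0 in all 4 sets, and LPS liver less LPS PFC was -0.21 (SE 0.08, p = 0.0125, adjusted p = 0.299 by limma).

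**Figure D4:**
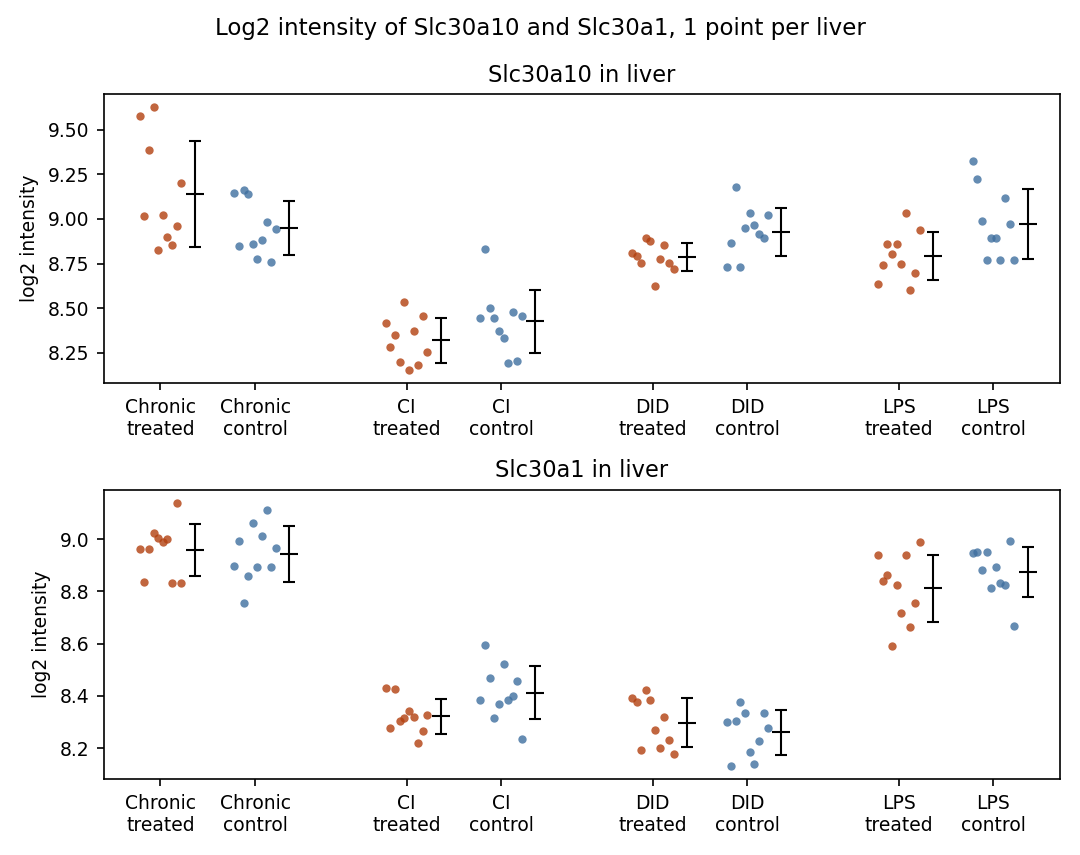
Log2 intensity of the exporters Slc30a10 (top) and Slc30a1 (bottom) in liver, 1 point per mouse, treated left of control in each test, with the mean and SD of the group as a bar. For Slc30a10 all 10 treated DID mice and 9 of 10 treated LPS mice lie below the control mean, and 4 treated Chronic mice lie above all controls.

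Slc30a1 encodes ZnT1, the zinc exporter of the plasma membrane and a target of MTF-1. In CI liver it ran from 8.22 to 8.43 with a median of 8.32 in treated mice, against 8.23 to 8.59 with a median of 8.39 in controls. The difference was -0.09 (SE 0.04, p = 0.0291, adjusted p = 0.387 by limma), with 8 of 10 treated mice below the control mean. It was no longer DE without control 2, control 6 or treated 8 (p of 0.0570 to 0.0628 by limma). It was 0.01 (SE 0.05) in Chronic, 0.04 (SE 0.04) in DID and -0.06 (SE 0.05) in LPS liver. In LPS PFC it ran from 8.48 to 8.74 with a median of 8.66 in treated mice, against 8.63 to 8.78 with a median of 8.70 in controls. The difference there was -0.07 (SE 0.03, p = 0.0327, adjusted p = 0.477 by limma), and 4 treated mice lay below the lowest control. It was no longer DE without any 1 of control 4, 5 and 10 and treated 2, 3 and 4 (p of 0.0529 to 0.0753 by limma). In Chronic, CI and DID PFC the difference stayed within 0.03 of 0.

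Slc39a1 encodes ZIP1, a zinc importer found in most tissues. In LPS liver it ran from 8.26 to 8.62 with a median of 8.46 in treated mice, against 8.24 to 8.46 with a median of 8.38 in controls. The difference was 0.09 (SE 0.04, p = 0.0380, adjusted p = 0.387 by limma), and 5 treated mice lay above the highest control. It was no longer DE without any 1 of control 2, 6, 7 and 9 and treated 1, 3, 5, 6 and 7 (p of 0.0504 to 0.0807 by limma). The other 3 liver sets gave differences of -0.04 (Chronic), -0.06 (CI) and 0.07 (DID), and the 4 PFC sets stayed within 0.03 of 0. Without treated 9, the array of CI liver that stood apart, the CI difference was -0.09 (p = 0.0263, adjusted p = 0.412 by limma) and DE, against p = 0.153 with it. The change in CI less that in LPS liver was -0.16 (SE 0.06, p = 0.0137, adjusted p = 0.609 by limma).

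Slc39a14 encodes ZIP14, an importer of zinc, manganese and iron that interleukin 6 induces in liver. It was held in the 4 liver sets, near the floor of the scale at the 0.733rd to 2.26th percentile, and in 0 PFC sets. Treated mice ran from 7.84 to 8.35 and controls from 7.87 to 8.34 over the 4 sets. The differences were -0.03 (SE 0.03) in Chronic, -0.02 (SE 0.02) in CI, -0.03 (SE 0.03) in DID and -0.003 (SE 0.03) in LPS liver. The LPS value comes from another probe than the other 3. A signal at the floor leaves little room to measure a decrease.

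Over all members, 70 differences of change between treatments or tissues were tested by limma, of which 0 passed the adjusted threshold and 9 (12.9%) had an unadjusted p under 0.05. Over all probes of the same 16 pairs of sets the share was 6.84%, and it ran from 3.56% to 13.4% by pair. The members' differences share arrays with each other. The smallest adjusted p was the 0.124 of Slc30a10 given above.

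The genes most like a member across arrays were ranked by the size of Pearson's r of the deviations from the group mean, over the probes held in all 4 sets of a tissue. In liver, Mt1 was nearest to Ppp2r5c (r = -0.54), 1700037H04Rik (0.53), 1700001C19Rik (0.50), Fam3c (0.50) and Litaf (0.49) over 78 or 79 arrays. Slc39a4 was nearest to Hfe (-0.63), Rps6 (0.62), Aldh6a1 (-0.61), Abat (-0.59) and Akr1e1 (-0.59) over 77 or 78 arrays. All 10 relations had 1 sign in the 4 sets except for Litaf and Aldh6a1, with 3 of 4. In PFC, Mt1 was nearest to Uqcrh (0.77), Anapc13 (0.77), Ndufc1 (0.76), Ndufa3 (0.74) and Chchd1 (0.74). Mt2 was nearest to 1700029P11Rik (0.71), Fmc1 (0.71), Nenf (0.66), Micos13 (0.64) and Ndufb10 (0.64), with an r of 0.51 to Mt1. Mt3 was nearest to Cst3 (0.83), Ccdc59 (0.83), Tomm6 (0.83), Grcc10 (0.81) and Gm1673 (0.81). The r of Mt3 with Cst3 ran from 0.46 to 0.93 over the 4 PFC sets, that of Mt1 with Uqcrh from 0.20 to 0.85 and that of Mt1 with Ndufc1 from -0.08 to 0.89. The values of a pair share arrays, so arrays that stand apart enter each r through both genes, and these r are a description.

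Other genes of metal handling were taken as lists without the members. Of the 11 further ZIP importers, 4 or 5 were held in liver and 7 in PFC, and of the 8 further ZnT exporters, 3 or 4 in liver and 5 or 6 in PFC. By limma 0 of these rose or fell in any set. Slc30a5, an exporter into the secretory pathway, was higher in treated mice of Chronic liver by 0.14 (SE 0.04, p = 0.00460, adjusted p = 0.135) and of CI liver by 0.11 (SE 0.04, p = 0.0168, adjusted p = 0.329). In Chronic liver all 10 treated mice lay above the control mean of Slc30a5. Slc30a9 was higher in Chronic PFC by 0.08 (p = 0.0414) and Slc39a11 in LPS PFC by 0.09 (p = 0.0154), both with an adjusted p over 0.05 by limma, and these 4 were all the DE values of both lists. The median change of the ZIP list was 0.002, -0.01, 0.02 and -0.003 in Chronic, CI, DID and LPS liver and that of the ZnT list -0.01, -0.02, -0.01 and 0.01, beside medians of all probes within 0.003 of 0.

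Of the list of metal-responsive transcription, Mtf1 and Sp1 were held in no set. Nfe2l2, which encodes Nrf2, was held in liver and was higher in treated mice of Chronic liver by 0.13 (SE 0.04, p = 0.00683, adjusted p = 0.161 by limma). Of its targets in the oxidative stress list, 9 of 11 were higher in Chronic, 9 of 10 in CI, 9 of 9 in DID and 3 of 10 in LPS liver. DE among them were 4, 2, 2 and 1 higher and 0, 0, 0 and 1 lower, with 0 past the adjusted threshold, and the median changes were 0.07, 0.06, 0.13 and -0.04. The largest share of all probes that were DE and higher in an ethanol liver was 6.31%, in Chronic. Srxn1, which restores oxidized peroxiredoxins, was higher by 0.13 (SE 0.04, adjusted p = 0.122) in Chronic liver, Txnrd1 by 0.07 (adjusted p = 0.357) in CI liver and Gsta1 by 0.26 (adjusted p = 0.722) in DID liver. Hmox1, heme oxygenase, was higher by 0.20 (adjusted p = 0.0912) in LPS liver by limma.

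Copper and iron handling genes were held for 14 to 16 of 20 in liver and 10 to 14 in PFC, with 0 that rose or fell by limma. The copper chaperone of superoxide dismutase, Ccs, was lower by 0.13 (p = 0.00826, adjusted p = 0.172) in Chronic liver and higher by 0.08 (p = 0.0295) in DID PFC. The transferrin receptor Tfrc was higher by 0.16 (p = 0.0163) in CI and by 0.26 (p = 0.0179) in LPS liver, with a difference of -0.16 (p = 0.00393) in LPS PFC. Slc40a1, the iron exporter ferroportin, was lower by 0.10 (p = 0.00661) in Chronic PFC. Each of these had an adjusted p of 0.172 or more by limma.

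Glucocorticoid targets had 1 gene that passed. Per1, a clock gene with a glucocorticoid response element, rose by 0.48 (SE 0.08, adjusted p = 0.00674 by limma, 10 of 10 treated mice above the control mean) in LPS liver. Of 11 or 12 targets held in liver, 3 were higher and 8 lower in Chronic, 9 and 3 in CI, 6 and 6 in DID, and 9 and 2 in LPS, with median changes of -0.13, 0.08, -0.03 and 0.11. In Chronic liver, where Mt1 was lower, 8 of 11 were lower, 4 of them DE against 5.8% of all probes, and 1 of the 3 higher, Pdk4, was DE against 6.31%. Dusp1, a phosphatase, had a difference of -0.33 (SE 0.12, p = 0.0134, adjusted p = 0.226 by limma) there. In DID liver, where Mt1 was lower too, the counts were equal, with 3 DE and lower against 2.2% of all probes, among them Cdkn1a at -0.30 (p = 0.00600, adjusted p = 0.509 by limma). The part of glucocorticoids in the Mt1 values was not tested. In CI liver Per1 was higher by 0.33 (p = 0.00391, adjusted p = 0.178 by limma). In PFC the targets were 7 higher and 4 lower in both Chronic and CI, 1 and 10 in DID, and 9 and 2 in LPS. DE and higher were 1, 2, 0 and 4 for Chronic, CI, DID and LPS, beside 2.61%, 2.84%, 1.84% and 4.61% of all probes. DE and lower was 1 in Chronic and DID each, beside 1.76% and 2.04% of all probes. Named by the smallest p, Sgk1 was higher by 0.20 in Chronic PFC, Fkbp5 by 0.10 in CI PFC and Per1 by 0.29 in LPS PFC, and Errfi1 had a difference of -0.09 in DID PFC (p = 0.0186, 0.0211, 0.00195 and 0.0289, each with an adjusted p over 0.05 by limma).

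Of the acute phase genes, made in liver under interleukin 6, 13 of 19 were lower in Chronic, 12 of 16 in CI, 14 of 16 in DID and 13 of 17 in LPS liver, with 5, 4, 3 and 2 of them DE and 0 past the adjusted threshold by limma. DE and lower in the same sets were 5.8%, 5.24%, 2.2% and 5.38% of all probes. The median changes were -0.07, -0.05, -0.09 and -0.04. Saa3 had a difference of -0.21 (adjusted p = 0.0865) in Chronic, Apcs of -0.37 (adjusted p = 0.158) in CI and Fga of -0.20 (adjusted p = 0.592) in DID liver, while Serpina3n was higher by 0.22 (adjusted p = 0.0968) in LPS liver.

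Hepatocyte markers, for the cells that make most of the liver's metallothionein, were held for 10 of 12 genes in each liver set. In Chronic liver 7 were lower (2 DE, Cps1 and Ass1) and 3 higher, beside 5.8% of all probes DE and lower. Mean levels over the list were 14.20 to 14.38 in treated mice and 14.19 to 14.35 in controls. In DID liver 7 were lower and 3 higher, with 13.55 to 13.85 in treated mice and 13.62 to 13.90 in controls. In CI liver 9 were lower and in LPS liver 9 were higher, with 0 DE in DID, CI and LPS, and 0 of these markers rose or fell in any liver set by limma. Chronic liver had 4 Kupffer cell markers higher and 4 lower, and DID liver 3 higher and 5 lower, with 0 DE in both sets. Mean levels over the Kupffer list in DID liver were 8.75 to 9.51 in treated mice and 9.18 to 9.67 in controls. CI and LPS liver each had 7 Kupffer cell markers higher and 1 lower, and 1 of them rose with LPS. In LPS liver 6 of 7 endothelial markers were higher, of which Lyve1 rose, and the list's mean levels were 9.68 to 9.91 in treated mice and 9.65 to 9.78 in controls. Neutrophil markers there were 2 higher and 1 lower, of which S100a8 rose, with mean levels of 8.58 to 10.04 in treated mice and 8.34 to 9.05 in controls. Of the stellate cell and fibroblast markers 5 of 6 were higher, 2 of them DE, and 3 of 3 lymphocyte and 3 of 3 blood markers were higher, 2 DE in each. Of all probes of LPS liver, 6.21% were DE and higher, and 0.555% passed the adjusted threshold.

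In LPS PFC, where Slc30a1 was lower, 8 of 8 markers of meningeal and vascular fibroblasts were higher, 5 of them DE, and Dcn and Mgp rose by limma. Their mean levels were 9.39 to 9.93 in treated mice and 9.14 to 9.60 in controls. Blood markers were higher in 3 of 3, all DE, with mean levels of 9.90 to 11.16 in treated mice and 9.94 to 10.25 in controls. Of all probes of LPS PFC, 4.61% were DE and higher, 4.97% were DE and lower, and 0.113% passed the adjusted threshold. Microglial markers were 7 higher and 1 lower with 4 DE, and endothelial markers 5 higher and 1 lower with 2 DE. Oligodendrocyte markers were 1 higher and 6 lower, with 1 of the lower DE. The 1 choroid plexus marker held had a difference of -0.38 and was DE. Neuronal markers were 2 higher and 4 lower, and astrocyte markers 8 higher and 2 lower, with 0 DE in both lists. These marker values and those of the gene lists stand beside those of the members. The part of markers and lists in the Mt1, Slc39a4, Slc39a1, Slc30a1 and Slc30a10 values was not tested.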

How the data were processed

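Total RNA of PFC and liver was hybridized to Illumina MouseRef bead arrays, 1 mouse per array, 159 in all. The deposited values are on a log2 scale. The authors had obtained them with lumi, whose version is not given in the sources used here, by variance stabilization and quantile normalization, after a filter on detection and with outlying single values blanked by Grubbs' test. From 0.492% to 0.619% of the values of a set were blank. A further 159 columns of bead signals carry running numbers tied to no mouse and were not used.

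Of 13983 probes, 13181 have 1 gene symbol and 802 have none. A gene is given by its probe with the highest mean signal. In R 4.3.3, limma 3.58.1 fitted treated less control to all probes of each of the 8 sets, unpaired, with moderated errors, and p-values were adjusted by Benjamini and Hochberg over all probes of a set, with a threshold of 0.05. Differences of change were fitted with a mean per group over the 4 groups of both sets. Correlations were tested by 100000 permutations within groups (scipy 1.17.1, numpy 2.4.6). The scripts were tested on simulated data. The number of arrays limits the precision. Sequences are from RefSeq (GRCm38.p6).

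The genes described and the lists were chosen with earlier results of these data known. All 8 genes are named, and of each pathway list the genes past the adjusted threshold or else the DE gene with the smallest p. Alternatives were the replicate number as a block, array weights, robust regression, another prior, 2 filters, a principal component, fits without arrays that stand apart (mean correlation over 3 scaled median absolute deviations below the median of the set), other values for blanks, another probe and each array left out.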

Additional observations from a re-analysis of the deposited data

Results flagged for a closer look

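A sample far from the others of its group was looked for in 98 groups of 9 or 10 mice (the gap to the nearest value over the range, against Dixon's critical value), where chance gives about 5% of groups, and 2 were found. In CI liver, Slc30a10 was at 8.83 in control 2, the highest of its 10 controls, beside a next value of 8.50, with a gap of 0.512 of the range. Without that mouse the CI difference of Slc30a10 was -0.06, against -0.11 with it. In DID PFC, Mt2 was at 8.56 in control 7, the highest of its 10 controls, beside a next value of 8.36, with a gap of 0.506 of the range. The authors had already blanked single outlying values, 7 of them among the values of these 8 genes.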

How the results depend on the processing

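Mt1 and Slc39a4 were left untested in liver. Under 11 alternative settings and with each array left out in turn, 0 of the members tested passed the adjusted threshold in any set. The lowest adjusted p was 0.0689 by limma, for Mt2 in Chronic liver with robust regression, against 0.215 as reported. Mt1 in Chronic liver lay between -0.81 and -0.58 over the settings and in DID liver between -0.99 and -0.80, and Slc39a4 in Chronic liver between 0.42 and 0.53.

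Of 373 refits, 17 turned the sign of a value that was not called. With array weights Slc30a1 in Chronic liver was -0.0087, and in Chronic PFC Mt3 was 0.074 and Slc30a10 0.0021. With robust regression Mt3 was 0.036 and Slc30a10 0.011 in Chronic PFC, Mt3 was -0.016 in DID PFC and Mt2 was 0.0095 in LPS PFC. Without the arrays that stand apart Slc30a1 was -0.0020 in Chronic liver, Mt2 was 0.019, Mt3 0.17 and Slc39a1 0.0050 in Chronic PFC, Slc39a1 was 0.011 and Slc30a10 -0.017 in CI PFC, and Mt3 was -0.038 in DID PFC. With the blank at the lowest value Mt3 was 0.0082 in CI PFC and Slc30a1 was 0.00091 in DID PFC. Without the 2 arrays farthest from the median of Mt1, r crossed 0 for Mt1 with Slc39a4 in Chronic (0.60), CI (0.075) and DID liver (-0.011) and for Mt1 with Mt2 in CI PFC (-0.073). The cause was not tested.

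The labels do not say that a replicate number ties mice, and in no set did the deviations of every same-numbered pair correlate over 0.1. CI PFC came nearest, with 9 of 10 pairs, a median r of 0.26 and 4 of 10 pairs best with their own number. With the replicate block 0 members passed, Slc39a1 in Chronic PFC turned to 0.0034, and Slc30a10 in Chronic liver had an adjusted p of 0.186 by limma. The block also made Mt1 DE in Chronic and LPS PFC and ended it for Slc39a1 in LPS liver and Slc30a1 in LPS PFC. With array weights Mt1 (0.14) and Mt2 (0.11) in CI PFC, Mt3 (0.09) in LPS PFC and Slc30a10 (0.23) in Chronic liver were DE, and with robust regression Mt2 in CI PFC (0.09).

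With each array left out, 12 changes of at most 0.0235 in size crossed 0. They were Mt2 in LPS PFC (-0.021 to 0.016), Mt3 in CI (-0.034 to 0.0091) and DID PFC (-0.038 to 0.059), Slc30a1 in Chronic liver (-0.0063 to 0.033), CI PFC (-0.0080 to 0.016) and DID PFC (-0.012 to 0.0010), Slc30a10 in Chronic (-0.023 to 0.022) and DID PFC (-0.027 to 0.0038), Slc39a1 in Chronic (-0.041 to 0.011), CI (-0.024 to 0.011) and LPS PFC (-0.0021 to 0.028), and Slc39a14 in LPS liver (-0.016 to 0.011). Normalizing the bead signals anew was not run. Probe signals near the floor (Slc39a14, Mt2 in liver) leave little room to measure a decrease. Whether such a signal reflects a scarce transcript or a weak probe was not tested.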
